A study of Brassica napus with 8 samples.

Results

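The probes described here are 182 of the 34992 on the array. Each had a log2 ratio above 0 on every available wild-type array and no value at all on the *MINELESS* arrays. They were chosen by their measured values: log2 ratios on at least 3 of the 4 wild-type arrays, a plain mean of 0.7 or higher with every available value above 0, and empty cells on all 4 *MINELESS* arrays. The wild-type levels and the absence of *MINELESS* values are therefore what defines these probes, and are given as a description only. The name "induced" stands for this rule in what follows.

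The study examined seedlings of *Brassica napus* attacked by the cabbage moth *Mamestra brassicae*. *MINELESS* is a *B. napus* line whose myrosin cells were ablated during seed development by a barnase, an RNase, expressed from a myrosinase promoter. The wild-type is cv. Westar. On every array, above-ground RNA of seedlings challenged for 24 h by 10-day-old larvae was set against RNA of non-infested seedlings of the same genotype, so that both genotypes have controls of their own. Seedlings were 6 to 7 days old, and larvae had been raised on the genotype they were placed on. A challenged replica pooled 6 pots of 4 seedlings, and a control replica pooled 4 such pots. Challenged RNA carried Cy5 in replicas 1 and 2 and Cy3 in replicas 3 and 4. The labels of the last 2 *MINELESS* replicas conflict, one field calling both channels challenged, and the dye given here is that of their source labels. The 4 arrays of each genotype are separate biological replicas. The deposited values are log2 ratios. Wild-type arrays with the dyes exchanged correlated positively with each other over all tested probes (r from 0.70 to 0.78), so the ratios already ran one way. That way is likely challenged over control, the direction in which the series' design text sets the comparison. At its own thresholds the paper reported more genes upregulated than downregulated in wild-type after feeding. Here 513 probes met the wild-type part of the rule and 121 met it with the signs reversed. The highest wild-type mean here was 3.72, the same in sign and size as the largest upregulation in the paper's wild-type gene list. If it ran the other way, the probes described here would be lower after feeding.

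Plants of the Brassicaceae store glucosinolates apart from myrosinase, the enzyme that hydrolyses them, and myrosinase is held in scattered idioblasts, the myrosin cells. Chewing brings enzyme and substrate together and releases isothiocyanates, nitriles and related products. Wounding by a chewing insect also raises jasmonic acid, which switches on genes for jasmonate synthesis, indole glucosinolate synthesis and storage and defence proteins. Probes of the array were designed on *Arabidopsis* genes. The tables used here do not pair a probe with a gene or a sequence, so the members appear under their probe names and no function is given to them. RNA came from above-ground tissue of many cell types, in which a smaller number of cells of a type and less RNA per cell cannot be told apart.

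The 182 probes gave 649 log2 ratios on the wild-type arrays, from 0.016 to 3.93. Their means ran from 0.70 to 3.14, with a median of 1.09 that corresponds to a 2.12-fold level. Of the 182, 21 had a mean of 2 or higher, 23 between 1.5 and 2, 64 between 1 and 1.5, and 74 between 0.7 and 1. Every available value was at least 0.7 for 94 probes, above 1 for 51 and above 2 for 9. For 44 probes the lowest array lay under 0.5, and for 11 it lay under 0.2. The level was thus graded, with a short strong end and 108 of the 182 probes at a mean of 1 or higher.

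**Figure D1:**
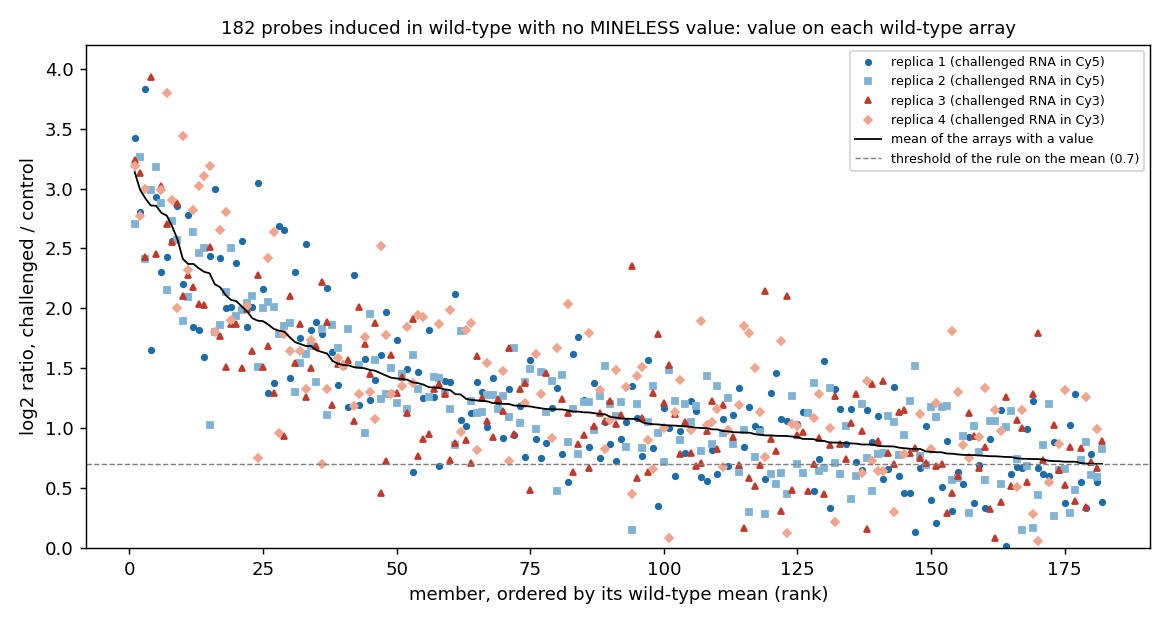
Log2 ratio of challenged over control seedlings (y axis) for the 182 probes ordered by their wild-type mean (x axis, rank), with 1 point for each wild-type array that held a value, the mean as a black line and the threshold of 0.7 dashed. Along the order the means went down to 0.70, with 3.14 at the top, and the arrays of neighbouring probes overlapped throughout.

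The probe with the highest mean was Narc8_24347, whose log2 ratios on wild-type replicas 1 to 4 were 3.42, 2.70, 3.24 and 3.19. They averaged 3.14 ± 0.31 (SD, n = 4), an 8.80-fold level. Narc8_06389 followed with 2.80, 3.26, 3.13 and 2.77, a mean of 2.99 ± 0.24 (SD, n = 4). The arrays of these probes covered the same range, so their order is not resolved. Narc8_20698 read 3.83 on replica 1 and 2.41, 2.43 and 3.00 on replicas 2 to 4, and its mean was 2.92 ± 0.67 (SD, n = 4). Here replica 1 stood above the remaining arrays.

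Of the 10 highest probes, 2 had no value on replica 4. Narc8_34524 had 1.66, 2.99 and 3.93 on replicas 1 to 3, with a mean of 2.86 ± 1.14 (SD, n = 3), and the value on replica 3 was the highest single ratio among all 182 probes. Narc8_30873 had 2.93, 3.18 and 2.46, with a mean of 2.86 ± 0.37 (SD, n = 3). These means were almost equal, while the spread between arrays was far wider for Narc8_34524.

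Narc8_26027 had 2.30, 2.88, 3.02 and 2.99 on replicas 1 to 4 (mean 2.80 ± 0.34, SD, n = 4). Narc8_20566 had 2.43, 2.16, 2.71 and 3.80, a mean of 2.77 ± 0.72 (SD, n = 4), and Narc8_03445 had 2.56, 2.73, 2.55 and 2.90, a mean of 2.69 ± 0.16 (SD, n = 4). Replica 4 was the high array for Narc8_20566, whereas the arrays of Narc8_03445 lay within a narrow band. Narc8_01330 had 2.85, 2.57, 2.88 and 2.01, a mean of 2.58 ± 0.41 (SD, n = 4), with replica 4 the low array. Narc8_33366 had 2.21, 1.90, 2.11 and 3.44, a mean of 2.41 ± 0.70 (SD, n = 4), with replica 4 the high one. The further 11 probes with a mean of 2 or higher lay between 2.02 (Narc8_19629) and 2.37 (Narc8_20454). In the order of the means, all 181 pairs of neighbours had overlapping arrays, and no position within a short stretch of the order is resolved. At the ends, 66 probes had their lowest array above the highest array of the last probe in the order. That probe had 3 values, and the order was made from these same values, so the count is a description only.

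That last probe was Narc8_15395, with 0.38, 0.83 and 0.90 on replicas 1 to 3 and a mean of 0.704. Just above it stood Narc8_33131 (0.56, 0.60, 0.67 and 0.99 on replicas 1 to 4), Narc8_23722 (0.79, 0.61 and 0.72 on replicas 1 to 3), Narc8_05127 (0.34, 0.89, 0.34 and 1.26 on replicas 1 to 4) and Narc8_32506 (0.55, 0.74 and 0.84 on replicas 1 to 3), whose means were 0.704, 0.704, 0.706 and 0.710. Just under the threshold, with the rest of the rule met, were Narc8_18645 with a mean of 0.698, Narc8_12597 with 0.696, Narc8_33763 and Narc8_19879 with 0.696 each, and Narc8_30221 with 0.689. Their single values ran from 0.31 to 1.29, close to the 0.34 to 1.26 of those just inside, so the edge of the set follows no gap in the data. A further 107 probes without *MINELESS* values had means between 0.5 and 0.7 with every value above 0. The condition on single values removed 1 probe, Narc8_24415, with -0.51, 1.73 and 1.03 on replicas 1 to 3, and 32 probes met all but the number of arrays, with values on 2.

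Among the 103 probes with values on all 4 wild-type arrays, the SD between arrays ran from 0.0909 to 0.99. An SD from 4 values is imprecise, and whether the probes differ in spread was not tested. Steady and uneven here name the ends of this range only. The steadiest was Narc8_32700, with 1.84, 2.05, 2.00 and 2.02 on replicas 1 to 4 and an SD of 0.0909 around a mean of 1.98. Narc8_02611 (0.69, 0.81, 0.67 and 0.93) and Narc8_33056 (1.36, 1.67, 1.54 and 1.59) had SDs of 0.12 and 0.13. Narc8_00075 (1.823, 1.685, 1.504 and 1.735) and Narc8_27007 (1.75, 1.55, 1.87 and 1.65) had 0.13 and 0.14. No array of these probes was set apart from the rest, and a steady reading occurred both near the threshold and well above it.

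Among these probes with 4 values, the largest SD belonged to Narc8_21382, which read 1.35, 0.15, 2.36 and 0.46 on replicas 1 to 4, a mean of 1.08 ± 0.99 (SD, n = 4). Narc8_24811 had 3.05, 1.51, 2.28 and 0.76 (mean 1.90 ± 0.99, SD, n = 4), and Narc8_18466 had 1.06, 0.46, 2.104 and 0.13 (mean 0.94 ± 0.87, SD, n = 4). In these the low arrays were replicas 2 and 4, which carry opposite dyes. Narc8_17554 had 2.44, 1.03, 2.51 and 3.19 (mean 2.29 ± 0.91, SD, n = 4), and Narc8_26564 had 1.61, 1.25, 0.46 and 2.52 (mean 1.46 ± 0.85, SD, n = 4). For the first of these the low array was replica 2, and for the second it was replica 3. Over all 182 probes the range between arrays exceeded 1 for 54 and exceeded the probe's own mean for 36.

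Replica 4 stood apart from the other wild-type arrays in 2 ways. It held 4551 values in all, against 6726 to 7119 on replicas 1 to 3, and 60 of the 182 probes had no value there, while 4, 4 and 11 had none on replicas 1, 2 and 3. It was also the highest of the 4 arrays for 45 of the 103 complete probes, compared with 17, 15 and 26 for replicas 1, 2 and 3. The same array was the highest for 138 of the 273 complete induced probes with *MINELESS* values, so it did not stand out for the described probes alone. The median log2 ratio of the probes was 1.31 on replica 4 and 1.14, 1.16 and 1.07 on replicas 1 to 3. Over all its values replica 4 had an SD of 0.746, and replicas 1 to 3 had 0.520 to 0.548. Probes read on replicas 1 to 3 alone had a median mean of 1.01, and the 103 complete ones 1.09. Whether the emptier array took part in the levels was not tested. Without replica 4 the median of the means was 1.06.

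Set beside the other probes that met the wild-type part of the rule, those without *MINELESS* values had the lower levels. The median of the means was 1.09 for the 182 probes, 1.24 for the 178 induced probes with 2 *MINELESS* values and 1.27 for the 153 with 3 or 4. Of the 182, 11.5% had a mean of 2 or higher, against 16.9% and 22.2% of these groups. The highest means were 3.14, 3.59 and 3.72. The median SD between arrays was 0.360 for the 182 probes and 0.335 for the 331 induced probes with *MINELESS* values. Within bands of level, the SDs of the 182 and of the 331 were 0.364 and 0.330 for means of 0.7 to 1, 0.338 and 0.322 for 1 to 1.5, 0.365 and 0.331 for 1.5 to 2, and 0.444 and 0.448 for 2 or higher. Values on all 4 wild-type arrays were held by 56.6% of the 182, 71.3% of the induced probes with 2 *MINELESS* values and 95.4% of those with 3 or 4. Probes sparse on the *MINELESS* arrays were thus sparse on the wild-type arrays as well. Across the 182 probes, pairs of wild-type arrays correlated at r from 0.41 (replicas 3 and 4) to 0.65 (replicas 2 and 3), and across the other induced probes at 0.69 to 0.82. The points of each correlation share arrays and a lower bound on the mean. No test of these differences was run, since probes are not replicates and the rule used the levels.

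A measure that the rule did not use is the value on an array left out of the choice. The probes were chosen again on 3 wild-type arrays, with at least 2 values there, and read on the fourth. This chose 216, 207, 191 and 203 probes without replicas 1, 2, 3 and 4, of which 197, 186, 170 and 121 had a value on the array left out. On replica 1, 126 of these 197 had a log2 ratio of 0.7 or higher, or 64.0%, beside 8.12% of the 6491 probes with a value there and at least 2 on the other arrays. On replica 2 it was 129 of 186 (69.4%) beside 9.44%, on replica 3 it was 118 of 170 (69.4%) beside 8.36%, and on replica 4 it was 93 of 121 (76.9%) beside 13.8%. For induced probes with *MINELESS* values, chosen in the same way, these shares were higher, at 71.2, 84.3, 75.6 and 86.6% on replicas 1 to 4. Above 0 were 192, 183, 169 and 119 of these probes, so that 5, 3, 1 and 2 did not keep the sign. Of all probes measured in the same way, 48.4, 52.4, 50.5 and 50.8% were above 0, and of induced probes with *MINELESS* values 98.6, 99.4, 98.8 and 99.3%. Where the array left out held a value, its sign was thus nearly always that of the other 3, and this was so for induced probes with and without *MINELESS* values. The probes chosen but empty on that array have no such reading. Genes with a strong dye bias had also been removed by the authors before, and the part of that filter in the agreement was not tested.

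The medians on the array left out were 1.016, 1.0985, 0.9465 and 1.197 for replicas 1 to 4. For induced probes that have *MINELESS* values, chosen in the same way, they were 1.06, 1.28, 1.13 and 1.53. The probes without *MINELESS* values lay lower on 4 of the 4 arrays, by 0.18 ± 0.12 on average (SD, n = 4 arrays). An exact permutation test of the sign over the arrays, added after the values were seen, gave a two-sided *P* of 0.125. That is the smallest that 4 arrays allow, so the difference could not pass 0.05 in this design. The 4 choices shared arrays and probes and are not separate units, so nothing is read from this *P*. On the arrays used for choosing, the medians were already lower, at 1.07, 1.06, 1.12 and 1.085 against 1.19, 1.24, 1.25 and 1.29. The difference is therefore not free of the level used in the choice.

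**Figure D2:**
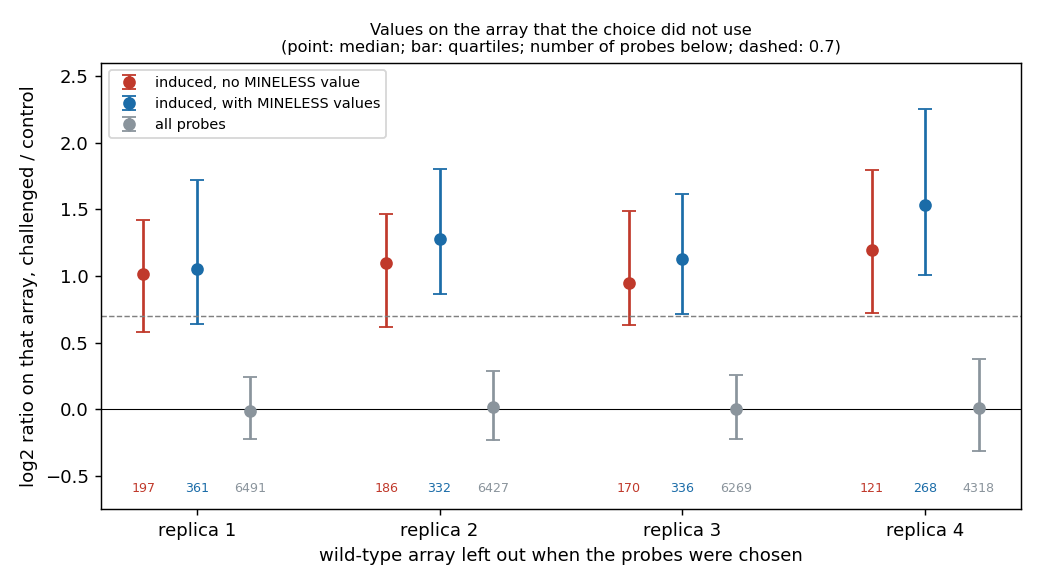
Log2 ratio on the wild-type array that was left out when probes were chosen (y axis; x axis, the array), with the median as a point, the quartiles as bars and the number of probes below. Medians of probes without *MINELESS* values (red) were 0.9465 to 1.197, those of induced probes with *MINELESS* values (blue) 1.06 to 1.53, and those of all probes (grey) near 0.

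The linear model fitted to the wild-type arrays alone, with limma, called 172 of the 182 probes higher after feeding with a log2 ratio above 0.5 and a Benjamini-Hochberg adjusted *P* within 0.05. Over all 6520 probes with at least 3 wild-type values, 9.28% were called higher. The rule used this same contrast, so nothing is read from the count. The 10 not called had fitted log2 ratios from 0.64 (Narc8_13322) to 1.08 (Narc8_21382) and missed the adjusted *P*, among them Narc8_18466, and both Narc8_21382 and Narc8_18466 were among the most uneven probes.

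The dye effect is a separate coefficient of that model, by which arrays with challenged RNA in Cy5 lie above the response and those with it in Cy3 below it, limited by the rule only in that every value had to be above 0. For 0 of the 182 probes did limma call a dye effect at 0.05 after adjustment, and the share over all 6520 probes was 0%. At an unadjusted *P* under 0.05 there were 13 of the 182 probes (7.14%), 17 of the 331 other induced probes (5.14%) and 44 of the 6520 (0.675%). Genes with a strong dye bias had been removed by the authors before deposition. The largest effects among the 182 were those of Narc8_34524 at -0.80, Narc8_28266 at -0.57 and Narc8_17554 at -0.56, read higher with Cy3, and of Narc8_29182 at 0.64, Narc8_05470 at 0.58 and Narc8_01799 at 0.52, read higher with Cy5. Narc8_29182 had 2.69 and 1.79 on replicas 1 and 2 and 0.97 on replica 4. Narc8_28266 had 0.35 and 0.96 on replicas 1 and 2 and 1.79 on replica 3. Narc8_05470 had 2.28 on replica 1 and 1.07 and 1.19 on replicas 3 and 4, and Narc8_01799 had 1.57 and 1.49 on replicas 1 and 2 and 0.49 on replica 3. Of these 6 probes, 5 had values on only 3 arrays, so that 1 array stood alone for its dye. The median dye effect of the 182 was -0.02.

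An empty *MINELESS* row does not say that the gene was silent or unresponsive there. In the deposited table, a probe read on a single array of a genotype does not occur, nor does one read on replicas 1 and 2 only or on replicas 3 and 4 only. This held for the 4791 probes with any *MINELESS* value and for the 7447 with any wild-type value. With the dyes as the source labels give them, every probe kept in a genotype therefore had at least 1 value with each dye, and rows with a single reading, or with readings in 1 dye only, are absent. *MINELESS* replicas 2 and 3 held 1781 and 1662 values and replicas 1 and 4 held 4669 and 4690, so for most probes the *MINELESS* row hung on replicas 1 and 4 (2699 probes had values on these alone). Signal intensities were not used here, and how many *MINELESS* spots of the 182 probes were read before the cells were emptied is not known.

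Missing *MINELESS* values were not more frequent among induced probes than in the table at large. Of the 513 probes that met the wild-type part of the rule, the 182 described here are 35.5% (95% Wilson interval 31.5 to 39.7%). Among all 6520 probes with at least 3 wild-type values, 2771 had no *MINELESS* value, or 42.5%. Among the 121 probes that met the rule turned round, with a mean of -0.7 or lower and every value below 0, 38 had none, or 31.4% (95% Wilson interval 23.8 to 40.1%). The intervals cover counting error only. With all 4 wild-type values the shares nearly met, as 27.4% of the induced probes and 28.2% of all probes had no *MINELESS* value. With 3 wild-type values they stayed apart, at 57.7% and 64.4%. From means of 0.5 upwards the share went down, with 47.9% for means from 0.5 to 0.7, 40.98% from 0.7 to 1, 38.3% from 1 to 1.5, 28.4% from 1.5 to 2 and 24.7% for 2 or higher. It was 44.4% from 0 to 0.3 and 43.4% from 0.3 to 0.5. On the negative side it was also low, at 33.3% from -1 to -0.7 and 27.0% below -1. A *MINELESS* value was thus most often present for large changes of either sign. These shares were not split by the number of wild-type values. Of the 182 probes, 52.7% had all 4 values at means of 0.7 to 1 and 76.2% at 2 or higher.

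**Figure D3:**
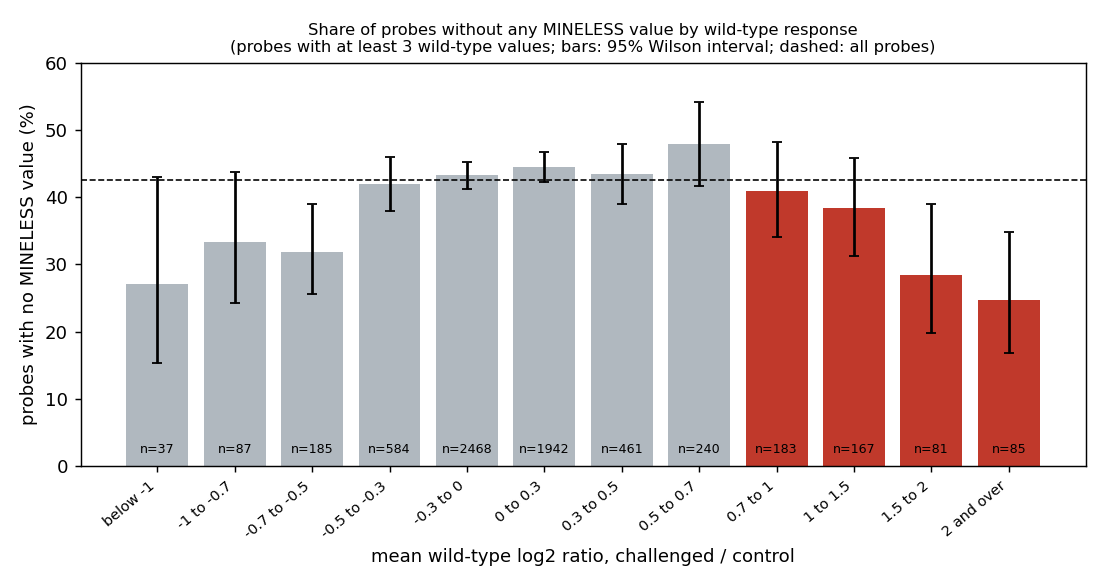
Percentage of probes with no value on any *MINELESS* array (y axis) by mean wild-type log2 ratio (x axis), for probes with at least 3 wild-type values, with 95% Wilson intervals, the number of probes in each bar and means from 0.7 upwards in red. The bars go from 40.98% at means of 0.7 to 1 down to 24.7% at 2 or higher, and the dashed line marks 42.5% for all probes.

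The rule turned between the genotypes gave far fewer probes. With at least 3 *MINELESS* values, a mean of 0.7 or higher with every value above 0 and no wild-type value there were 14 probes. They were 11.4% of the 123 probes induced in *MINELESS* by the same rule, and 11.1% of all 1989 probes with at least 3 *MINELESS* values had no wild-type value. The share for the 14 was thus close to its background, while the 35.5% for the 182 was under its background of 42.5%.

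The missing values followed the probe numbers. When the 34992 numbers were divided into 12 equal parts, the last part, Narc8_32077 to Narc8_34992, held 28 of the 182 probes (15.4%), while it held 6.03% of the 6520 probes with at least 3 wild-type values. In that part, *MINELESS* replicas 1 to 4 had 64, 64, 52 and 80 values, whereas in the other 11 parts replica 1 had 225 to 508 and replica 4 had 217 to 514. The wild-type arrays had 464, 400, 412 and 394 values there, within the range of the other parts. As a result, 83.7% of all probes of the last part and 82.4% of its induced probes had no *MINELESS* value. Over the other parts the share lay between 25.1% and 56.0% for all probes and between 13.5% and 53.7% for induced ones, and it was lower for induced probes than for all probes in 11 of the 12 parts. Narc8_34524, Narc8_33366, Narc8_32700, Narc8_33056, Narc8_33131 and Narc8_32506, described above, are in the last part, as is Narc8_33763 just under the threshold. The sources used here do not give what the numbers stand for on the slide, and the part of position in the missing values was not tested. Without the last part the induced probes lacking *MINELESS* values were 154 of 479, or 32.2%, beside 39.9% of all probes, and the median of their means was 1.08.

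Wild-type values were missing along the numbers too. Between Narc8_29161 and Narc8_29889, a run of 729 numbers, wild-type replica 3 held 1 value and replicas 1, 2 and 4 held 96, 64 and 98. All 6 of the 182 probes in this run lacked replica 3, among them Narc8_29182, and 11 of the 182 lacked it in all. The dye effect of Narc8_29182, given above, rests on this pattern of arrays. Of the 48 runs of 729 numbers, 45 held at least 1 of the 182 probes, and the most in any was 10. The 182 probes were not spread evenly, however. Narc8_26245 to Narc8_34992 held 69 of them (37.9%), beside 17.8% of the 6520 probes with at least 3 wild-type values. The parts of this range starting at Narc8_26245, Narc8_29161 and Narc8_32077 held 22, 19 and 28. In the range, 60% of induced probes and 63.8% of all probes had no *MINELESS* value, against 28.4% and 37.9% over the lower numbers.

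**Figure D4:**
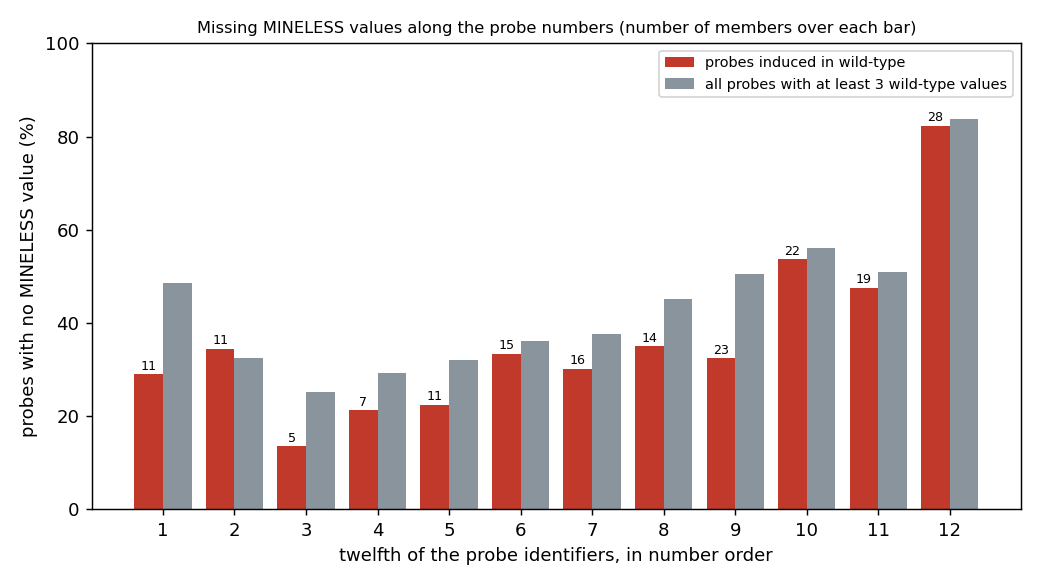
Percentage of probes with no *MINELESS* value (y axis) in each twelfth of the probe numbers (x axis), for probes induced in wild-type (red, with the number of probes described here over each bar) and for all probes with at least 3 wild-type values (grey). The last twelfth reached 82.4% and 83.7%, and the red bar was under the grey one in 11 of the 12 parts.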

How the data were processed

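The authors took logs of the 2-colour ratios without subtracting a background, applied print tip-loess normalization to each array, averaged replicate spots and removed genes with a strong dye bias, with limma in R 2.10.1 according to the methods and the labels. They deposited log2 ratios for 34992 probes and 8 arrays, and no column was left out here. Which rule emptied cells is not given in the sources used. The members and lists were chosen with earlier results of these data known.

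From the deposited log2 ratios, members were found by the rule and described by plain means and SDs. Wild-type arrays were fitted in limma 3.58.1 (R 4.3.3) with a response and a dye effect for each probe, across 6520 probes with at least 3 values (prior degrees of freedom 5.98, Benjamini-Hochberg adjustment), as tested on simulated data. The number of arrays limits the precision. Named probes were the 10 highest and 5 lowest members, the 5 nearest below the threshold, the 5 largest and 5 smallest SDs with 4 values, and the 3 largest dye effects each way. Others were named after their values were seen. Alternatives were other thresholds, centring, scaling, array weights, robust moderation and each array left out. Lists of pathway genes could not be applied, since the tables used do not link a probe to a gene.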

Additional observations from a re-analysis of the deposited data

Results flagged for a closer look

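Dixon's ratio was taken for 26 groups of 4 arrays, and in 2 of them a single array lay far away, as chance alone gives in about 1 of 20 groups. Both concern wild-type replica 4. It held 4551 values in all, while wild-type replicas 1 to 3 held 6726 to 7119, and it held values for 122 of the 182 probes, against 171 to 178. The cause was not tested. Of the 103 probes with 4 wild-type values, 3 had an array past the ratio.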

How the results depend on the processing

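The 182 probes became 289 with a threshold of 0.5, 108 with a threshold of 1 and 103 with all 4 wild-type values required. They numbered 180 to 197 with the limma estimate, the median, centred or scaled arrays or no condition on single values, of which 169 to 182 were among the 182. With each wild-type array left out and 2 values required there were 191 to 216, and 162 to 171 of these were among the 182. The count called higher by limma was 172, beside 9.28% of all probes tested. At an adjusted *P* of 0.01 it was 114, beside 5.71% of all probes. With 4 values required it was 103, where only 103 members were tested, beside 12.8% of all probes. It was 160 of 178 members tested without replica 1 (8.42% of all probes) and 157 of 178 without replica 2 (7.21%). Without replica 3 it was 119 of 122 (14.7%), and without replica 4 it was 167 of 171 (9.22%). The dye effect was called for 0 members, except 7 of 122 without wild-type replica 3, where 50 of 4551 probes were called. The share without *MINELESS* values, 35.5% beside 42.5% of all probes, was 27.4% beside 28.2% with all 4 wild-type values required. With each wild-type array left out the share was 35.2 to 39.3%, beside 43.8 to 47.6% of all probes. Leaving out a *MINELESS* array left it at 35.5%, which follows from the table, since no probe had fewer than 2 values there. The median log2 ratio stayed between 1.06 and 1.12 and the median SD between 0.326 and 0.373. Alternatives without the last twelfth of numbers were chosen after seeing the data.

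No paired analysis was possible because, although both genotypes carry replicate numbers 1 to 4, the probes have no *MINELESS* value to set against a wild-type value. Signal over background is not given, and empty cells limit what can be compared.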
